A study of Mus musculus with 8 samples.

Results

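The red cell membrane skeleton is a flat protein network under the plasma membrane, in which spectrin tetramers are tied at their ends to short actin filaments. Ankyrin and protein 4.2 attach the network to band 3, the anion exchanger, and the actin junctions are built with protein 4.1, adducin, dematin and tropomodulin. In humans, inherited defects of ankyrin, beta-spectrin, band 3 and protein 4.2 cause hereditary spherocytosis. Reticulocytes, the youngest circulating red cells, still hold mRNA of these proteins, and mature erythrocytes have lost most of theirs.

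Of 9 genes of this network (Ank1, Epb42, Epb41, Sptb, Slc4a1, Add1, Add2, Dmtn and Tmod1), 8 were measured by 23 probe sets, taken by gene symbol from 45101 probe sets in all. For Epb41, which encodes protein 4.1, no probe set carried its name in the platform annotation used here, so no value is given for it. Levels were compared between 4 mice exposed to restraint stress (RST) and 4 control mice, all female C57BL/6J, 6 to 8 weeks old by the labels (an age that the study's methods give at purchase, before acclimation and restraint), with no transgene or drug named for either group. RST mice spent 6 h of each day confined in a ventilated tube, and control mice went without food and water in those hours, so that fasting was common to both groups and confinement was not. Blood was drawn on Day 7, and the RNA of each mouse (30 ng, amplified and labeled) was hybridized to its own Affymetrix mouse genome array. Values are log2 expression levels as the authors deposited them, and a log2 fold change is the RST mean minus the control mean. Whole blood is a mixture, so a change in the mix of cells and a change in mRNA per cell cannot be told apart. The mix includes red cells of an age that hold mRNA, and also white cells.

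Defining markers of reticulocytes and erythroid cells were bright on average, but not every one of them was bright. The mean log2 level of a mouse over the 10 of 13 listed genes that were measured was 9.52 to 10.27 in RST and 9.06 to 9.75 in control mice. The genes ran from Alas2, at 13.68 in RST and 13.57 in control mice, down to Klf1, at 5.11 and 4.26. The arrays were not alike in their distributions. RST mouse 4 was the lowest of the 8 for 41.6% of the 25084 probe sets that were tested (those above the median of their array in 2 or more mice of a group), and hybridization controls were at 11.90 to 12.35 in RST mouse 2 and control mice 1 and 2, against 12.60 to 12.74 in the other 5 mice. The median log2 fold change over tested probe sets was −0.20.

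All 8 measured genes of the membrane skeleton had a higher mean level in RST mice, and their log2 fold changes ran from 0.20 (Add1, alpha-adducin) to 1.36 (Epb42, protein 4.2) with a median of 0.87, against −0.24 over the 11762 genes tested. For Ank1, Epb42, Slc4a1 and Tmod1 the lowest RST mouse stood above the highest control mouse, while Sptb, Dmtn, Add1 and Add2 overlapped between the groups. No gene passed an adjusted p under 0.05 with a change over 1.5-fold in limma. Under that rule 0% of the tested probe sets were called, and the smallest adjusted p of any was 0.32. At an unadjusted p under 0.05 with RST over 1.5-fold higher, 6 of the 8 genes (75%) were counted, against 2.89% of the tested probe sets. Groups that do not overlap, with RST above control, were found for 4 of the 8 genes, against 2.23% of the tested probe sets. Without RST mouse 4, Sptb and Dmtn joined them, which made 6 of the 8 genes against 6.56% of the probe sets. With any other single mouse left out the 4 genes were the same, and the share of probe sets was 2.56% to 4.17%, reaching 3.46% when RST mouse 2, 3.55% when control mouse 3 and 4.17% when control mouse 4 was the one left out. The brightest probe set of each gene, which stands for the gene, was above the median of its array on all 8 arrays, so none of these genes entered through the RST arrays alone. The array-wide shares are over all tested probe sets, dim ones included, and no share over genes at their brightest probe set was computed. Counted by probe set, 13 of the 19 that passed the filter for these genes (68.4%) met the unadjusted rule. Without overlap were 5 of the 19 (26.3%). Of the 19, 1 (of Ank1) passed only through RST arrays. The 4 mice of a group were separate animals, and their number limits the precision.

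The sequences before the start sites of Epb42, Sptb and Tmod1, which were higher in RST mice 1 to 3 than in each control mouse, and of Add1, whose groups were interleaved, are shown to set the letters beside the values. They are the 250 bases upstream of the RefSeq start in GRCm38.p6, 5′ to 3′ on the strand of the gene. Capitals mark, on either strand, the GATA motif (the letters GATA after A or T and before A or G) and the motif bound by KLF1 (CCNCNCCC), both textbook sites of erythroid genes, and neighboring capitals can be overlapping matches.
Epb42 (chr2:121036878-121037127, minus strand): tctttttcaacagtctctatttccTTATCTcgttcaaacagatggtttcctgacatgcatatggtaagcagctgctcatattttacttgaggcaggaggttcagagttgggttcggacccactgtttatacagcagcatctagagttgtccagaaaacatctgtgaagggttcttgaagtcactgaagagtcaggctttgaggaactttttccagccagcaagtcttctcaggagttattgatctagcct
Sptb (chr12:76710548-76710797, minus strand): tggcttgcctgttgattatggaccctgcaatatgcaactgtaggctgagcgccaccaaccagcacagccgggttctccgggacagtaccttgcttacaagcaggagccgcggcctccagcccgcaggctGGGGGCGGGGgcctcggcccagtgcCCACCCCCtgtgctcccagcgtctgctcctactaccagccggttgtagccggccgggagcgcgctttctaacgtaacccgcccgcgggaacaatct
Tmod1 (chr4:46038972-46039221, plus strand): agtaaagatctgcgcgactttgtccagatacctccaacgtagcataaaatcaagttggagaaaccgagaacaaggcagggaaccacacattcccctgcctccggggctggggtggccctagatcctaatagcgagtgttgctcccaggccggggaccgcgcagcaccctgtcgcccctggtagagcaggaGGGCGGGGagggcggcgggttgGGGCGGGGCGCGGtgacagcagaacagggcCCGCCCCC
Add1 (chr5:34573414-34573663, plus strand): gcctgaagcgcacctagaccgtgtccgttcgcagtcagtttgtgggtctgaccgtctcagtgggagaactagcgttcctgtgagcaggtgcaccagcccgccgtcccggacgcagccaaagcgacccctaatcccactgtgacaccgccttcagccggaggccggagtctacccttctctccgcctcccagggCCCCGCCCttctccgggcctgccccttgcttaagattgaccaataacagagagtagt
The GATA motif was found 1 time in the Epb42 window and not in the others shown, and it is present in 26.5% of 32851 promoter windows of the same length. The KLF1 motif was found 3 times before Sptb, 4 times before Tmod1, 1 time before Add1 and not before Epb42, against 45.9% of all windows with at least 1 match. The window of Add2, whose groups overlapped, is not shown and held the GATA motif 1 time and the KLF1 motif 2 times. Windows of Epb41, which was not measured, are not shown either. A match is a run of letters and not a measured binding site.

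Ank1 encodes erythrocyte ankyrin, the adaptor between band 3 and beta-spectrin, and lies on chromosome 8. Its brightest probe set had log2 levels of 7.65, 8.17, 7.47 and 7.10 in RST mice 1 to 4, against 6.22, 5.59, 6.55 and 6.72 in control mice 1 to 4. The lowest RST mouse stood 0.38 log2 units above the highest control mouse. The log2 fold change was 1.33 (standard error 0.33), or 2.51-fold (limma adjusted p = 0.32, two-sided exact permutation p = 0.029, the smallest that 4 mice against 4 allow). Of its other 3 probe sets, 2 passed the filter, with log2 fold changes of 1.22 and 1.17, and in both of them RST mouse 4 (4.63 and 2.38) lay within the control range. The probe set at 1.17 was past the filter only through RST arrays. The last one was below the filter, at a mean of 2.25 in RST and 2.06 in control mice.

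Epb42 encodes protein 4.2, which binds both band 3 and ankyrin. Its brightest probe set had log2 levels of 9.07, 9.11, 8.93 and 8.63 in RST mice 1 to 4, against 7.24, 6.72, 8.01 and 8.34 in control mice 1 to 4. The RST mice lay close together and the control mice were spread, with control mice 1 and 2 low. On the log2 scale the groups differed by 1.36 (standard error 0.36, 2.56-fold, limma adjusted p = 0.32, two-sided exact permutation p = 0.029). The other probe set of the gene was dimmer, at 6.67 ± 0.74 in RST and 5.25 ± 0.70 in control mice (SD, n = 4 each), and its log2 fold change of 1.42 (standard error 0.43) was close to that of the brighter probe set, although RST mouse 4 at 5.73 lay under control mouse 4 at 6.24.

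Slc4a1 encodes band 3, the chloride and bicarbonate exchanger that is the most abundant protein of the red cell membrane. Its brightest probe set was at 12.65, 12.68, 12.60 and 12.54 in RST mice 1 to 4, against 11.79, 11.56, 12.32 and 12.27 in control mice 1 to 4. All RST mice were within 0.14 log2 units of each other and above the control mice. The difference was 0.63 log2 units (standard error 0.26, 1.55-fold, limma adjusted p = 0.34, two-sided exact permutation p = 0.029). The suffix of this probe set (_x_at) marks probes that may also bind related transcripts. A second bright probe set without that suffix gave 12.54 ± 0.11 in RST and 11.90 ± 0.31 in control mice, with a log2 fold change of 0.64 and no overlap. Another, much dimmer probe set had means of 4.89 ± 0.84 in RST and 3.85 ± 0.52 in control mice, and its log2 fold change was 1.04 (standard error 0.42) with overlapping groups.

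Sptb encodes beta-spectrin of the red cell, whose ankyrin-binding repeat ties the spectrin network to band 3. Its log2 levels were 6.80, 7.04, 6.86 and 5.22 in RST mice 1 to 4, against 5.65, 4.83, 5.68 and 6.05 in control mice 1 to 4. RST mice 1 to 3 were above each control mouse, and RST mouse 4 was under 3 of the 4 control mice. The log2 fold change was 0.93 (standard error 0.42, 1.90-fold, limma adjusted p = 0.37, two-sided exact permutation p = 0.11), and it was 1.35 without RST mouse 4. A dimmer probe set of Sptb gave 0.52 (standard error 0.34).

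**Figure D1:**
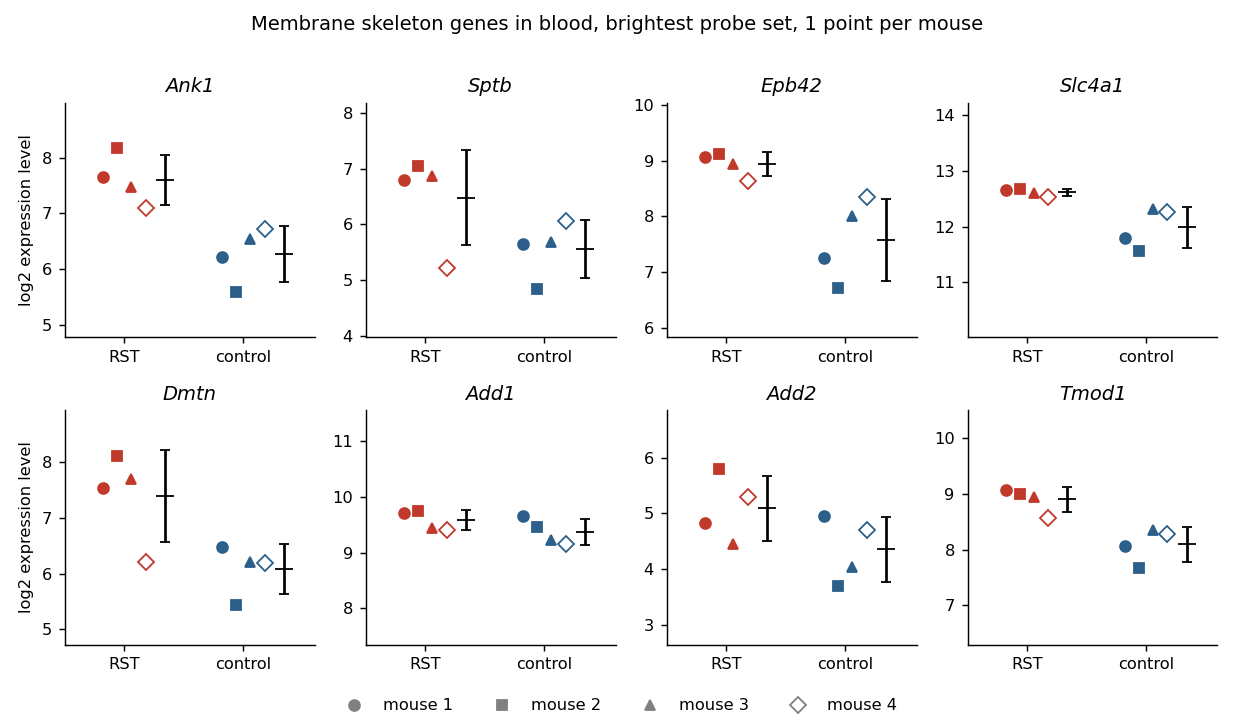
Log2 expression level of 8 membrane skeleton genes, each at its brightest probe set, with RST mice in red on the left of each panel and control mice in blue on the right (1 point per mouse, black bars mean ± SD, n = 4 each, all panels the same height in log2 units). RST and control mice do not overlap for Ank1, Epb42, Slc4a1 and Tmod1, and RST mouse 4 (open diamond) is near or within the control range for Sptb and Dmtn.

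The genes of the actin junction were less alike. Dmtn encodes dematin, which bundles actin filaments. Its log2 levels were 7.54, 8.11, 7.70 and 6.21 in RST mice 1 to 4, against 6.47, 5.44, 6.22 and 6.19 in control mice 1 to 4. As for Sptb, 3 RST mice were above all control mice and RST mouse 4 was among them. The log2 fold change of 1.31 (standard error 0.41, 2.48-fold, limma adjusted p = 0.32, two-sided exact permutation p = 0.086) became 1.70 when RST mouse 4 was left out. The remaining 2 probe sets of Dmtn were dim, with means of 3.67 and 2.28 in RST and 3.55 and 1.96 in control mice, and their log2 fold changes were 0.11 and 0.32.

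Tmod1 encodes tropomodulin 1, which caps the slow-growing end of the actin filament. Its only probe set gave 9.07, 9.01, 8.95 and 8.57 in RST mice 1 to 4, against 8.07, 7.67, 8.36 and 8.28 in control mice 1 to 4. The groups did not overlap, with RST mouse 4 the nearest to the control mice. RST exceeded control by 0.81 log2 units (standard error 0.26, 1.75-fold, limma adjusted p = 0.32, two-sided exact permutation p = 0.029).

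The 2 adducin genes encode the subunits that cap the fast-growing end of actin and recruit spectrin to it. Add1, alpha-adducin, is expressed in most cell types. It had log2 levels of 9.71, 9.76, 9.45 and 9.40 in RST mice 1 to 4, against 9.66, 9.47, 9.23 and 9.15 in control mice 1 to 4. The values of the groups were interleaved. The log2 fold change was 0.20 (standard error 0.25, limma adjusted p = 0.72, two-sided exact permutation p = 0.23), and it turned to −0.034 when arrays were scaled to the spike-in controls. The other 2 probe sets of Add1 gave 0.16 and 0.61 (standard errors 0.34 and 0.40).

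Add2 encodes beta-adducin, the subunit found in red cells and brain. Its brightest probe set had log2 levels of 4.82, 5.79, 4.45 and 5.30 in RST mice 1 to 4, against 4.96, 3.70, 4.04 and 4.71 in control mice 1 to 4. The groups overlapped, and no probe set of the gene was bright. The difference was 0.74 log2 units (standard error 0.37, 1.67-fold, limma adjusted p = 0.39, two-sided exact permutation p = 0.14). The 5 probe sets of Add2 disagreed. A probe set at 5.76, 7.06, 4.61 and 3.43 in RST mice 1 to 4 and at 3.63, 2.72, 2.61 and 3.93 in control mice 1 to 4 had a log2 fold change of 1.99, the highest of all 23 (standard error 0.65, limma adjusted p = 0.32), with RST mice 1 to 3 above all control mice and RST mouse 4 below controls 1 and 4. A further one gave 1.01 (standard error 0.42). The remaining pair, both below the filter, gave 0.48 and −0.57, with −0.57 the only negative value among the 23 probe sets.

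**Figure D2:**
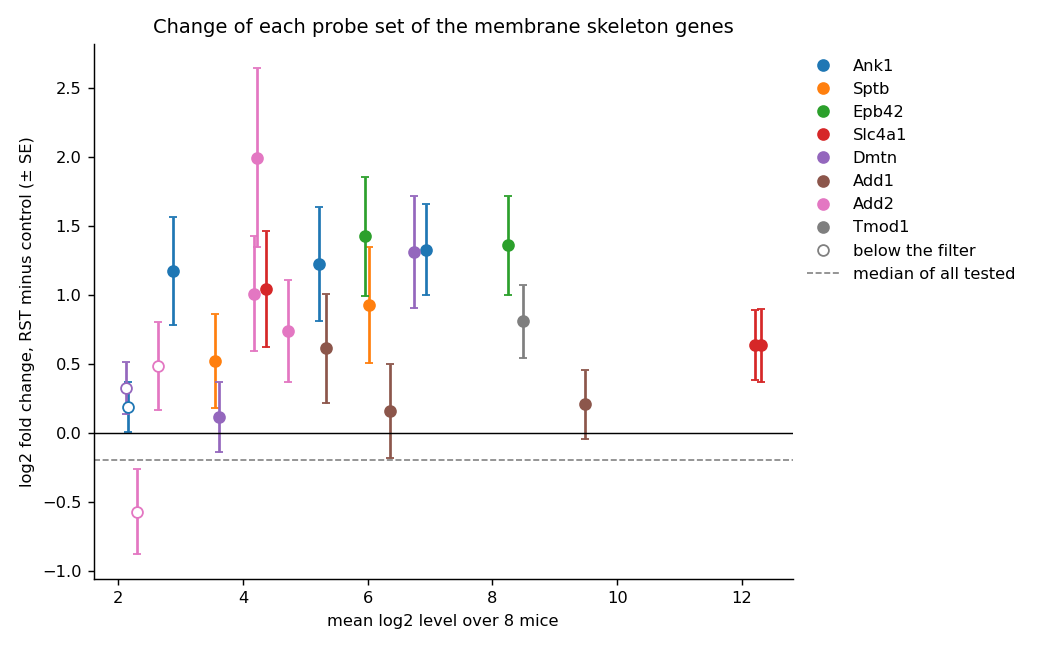
Log2 fold change (RST minus control, bars ± standard error) of each of the 23 probe sets against its mean log2 level over the 8 mice, with 1 color per gene and open circles for the 4 probe sets below the filter. Of the 23 points, 22 lie above 0, the dashed line marks the median of all tested probe sets at −0.20, and the pair of bright Slc4a1 probe sets at the right lies at 0.63 and 0.64.

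The size of the difference was unequal between the genes. At the brightest probe set, Add1 and Slc4a1 had the smallest log2 fold changes, 0.20 and 0.63, while Epb42, Ank1 and Dmtn had the highest, between 1.31 and 1.36. With a gene's value as the mean of its probe sets past the filter, Dmtn was at 0.71, under Slc4a1 at 0.77. Add2 was then at 1.25, beside Ank1 at 1.24, with Epb42 still the highest (1.39) and Add1 the lowest (0.32). The places of Dmtn, Slc4a1 and Add2 thus depend on the probe sets used. The standard errors of 0.25 to 0.42 leave the order of Epb42, Ank1 and Dmtn unsettled. Slc4a1 was the brightest of the measured genes (mean 12.62 in RST mice), and its dimmest probe set gave 1.04. Whether the signal level affects the size of a difference was not tested. Relative to Add1 on the same array, Ank1 was 1.12 log2 units higher in RST than in control mice, Epb42 1.15, Dmtn 1.10, Sptb 0.72, Tmod1 0.60, Add2 0.53 and Slc4a1 0.43. Ank1, Epb42 and Tmod1 did not overlap between the groups on this scale, for which the array-wide share without overlap was not computed. The mean of the other 7 genes minus Add1 was −1.43 ± 0.24 in RST and −2.24 ± 0.59 in control mice (SD, n = 4 each), a difference of 0.81 that was 0.34 without control mice 1 and 2. These values are a description, since the genes were chosen with earlier results known.

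Some mice held the same rank in most of the genes. RST mouse 2 was the highest of the 8 mice in 7 of the 8 genes, and control mouse 2 was the lowest in 7. Among RST mice, mouse 4 was the lowest in 7 of the 8 genes. Over all tested probe sets, control mouse 2 was the lowest of the 8 mice in 9.96% and RST mouse 4 in 41.6%. Array-wide shares for the highest mouse, and for the lowest among RST mice, were not computed. Over the 8 mice, and without Add1, the 21 pairs of genes had Pearson correlations of 0.48 to 0.99 (median 0.87). After each group's mean was subtracted the range was 0.18 to 0.96 (median 0.77). The 7 pairs with Add1 had correlations of 0.13 to 0.60 over the 8 mice and of −0.53 to 0.39 within groups. Epb42 and Slc4a1 had the highest correlation of these pairs, 0.99 over the mice and 0.96 within groups. Genes on 1 array share its labeling and hybridization, so these correlations are given as a description.

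Of the 3 mice with low hybridization controls, control mouse 2 had the lowest mean of the 8 skeleton genes (6.87), control mouse 1 was at 7.51, close to control mouse 3 at 7.55, and RST mouse 2 had the highest (8.71). With the level of these controls as a covariate, the log2 fold change was 1.16 for Ank1, 0.96 for Epb42, 1.33 for Dmtn and 0.41 for Slc4a1. Without control mice 1 and 2, a comparison chosen after the data were seen, all 8 genes still had a higher RST mean and their median was 0.67. At an unadjusted p under 0.05 and RST over 1.5-fold higher, 3 of the 8 were counted, against 225 of the 25084 tested probe sets. In that comparison Slc4a1 was at 0.32 and Epb42 at 0.76.

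Of 25 further genes of membrane skeletons (other spectrins, ankyrins, adducin 3, tropomyosins, actins, capping proteins and relatives of protein 4.1), 22 were tested. RST means were above control means in 5 and below them in 17, where 34.7% of all tested probe sets had the higher mean in RST, with a median log2 fold change of −0.18, against −0.24 for the median gene. At an unadjusted p under 0.05 and over 1.5-fold, 1 was higher and 3 were lower, against 2.89% of all tested probe sets higher and 10.4% lower. No adjusted p in limma was under 0.05. The higher one was Mpp1, which encodes p55, a scaffold that links protein 4.1 to glycophorin C. It averaged 11.73 ± 0.09 in RST and 11.08 ± 0.35 in control mice, with no overlap and a difference of 0.65 (standard error 0.26). The lower ones were Epb41l1, a relative of protein 4.1 found in neurons (−0.97), Slc4a2, an anion exchanger of many tissues related to band 3 (−0.94), and Add3, gamma-adducin of non-erythroid cells (−0.71). Add3 averaged 7.93 ± 0.28 in RST and 8.64 ± 0.43 in control mice. Each RST mouse was below each control mouse for Epb41l1 and for Tpm3, a tropomyosin gene named after its values were seen (−0.43, standard error 0.25), against 5.76% of the tested probe sets.

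Among 15 genes of membrane proteins that are held by the skeleton or belong to the same membrane, 12 were tested. RST means were above control means in 9 and below them in 3, and the median was 0.22. Of these, 3 were higher at an unadjusted p under 0.05 and over 1.5-fold, none was lower, and limma gave no adjusted p under 0.05. The array-wide shares were 2.89% higher and 10.4% lower. Kel, the Kell blood group protease, averaged 7.81 ± 0.47 in RST and 6.70 ± 0.62 in control mice, a difference of 1.11 log2 units (standard error 0.36), and that of Rhd, a subunit of the Rh complex, was 0.78 (standard error 0.35). Bsg, basigin, averaged 10.12 ± 0.22 in RST and 9.27 ± 0.26 in control mice, with no overlap (0.85, standard error 0.26). Piezo1, a mechanically gated cation channel, was at −0.59 (standard error 0.31).

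Against the mean of a list of other erythroid genes, the mean of the skeleton genes stood higher in RST mice. This is a description, since the genes of both lists were chosen with earlier results of these data known. The erythroid comparison list, of heme enzymes, globins, transcription factors and late maturation genes, had 18 of 22 genes tested, 17 with RST above control and 1 below, and a median log2 fold change of 0.42. Of these, 5 were higher at an unadjusted p under 0.05 and over 1.5-fold, against 2.89% of the tested probe sets, and the 4 with the smallest p were Fbxo7 (1.20), Hebp1 (1.14), Trim10 (0.91) and Car2 (0.63). The mean of the 8 skeleton genes minus the mean of these 18 genes was −1.87, −1.68, −1.86 and −1.80 in RST mice 1 to 4, against −2.17, −2.39, −2.10 and −2.23 in control mice 1 to 4. All RST mice were above all control mice, by 0.42 log2 units on average. The difference was 0.37 when the comparison was limited to the 12 genes within the level range of the skeleton genes, and 0.36 without control mice 1 and 2, both chosen after the data were seen. By gene at its brightest probe set, Epb42 (0.86), Ank1 (0.83) and Dmtn (0.81) were the farthest above the comparison list, Slc4a1 was at 0.14, and Add1 lay at −0.29. Taken singly, Ank1 and Epb42 did not overlap between the groups on this scale, and the other 6 genes did. The share of all tested genes without overlap on this scale was not computed, so these separations have no array-wide value beside them. RST mouse 4, low in most skeleton genes, was also the lowest RST mouse in the comparison list, and its difference of −1.80 was within the range of the other RST mice.

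**Figure D3:**
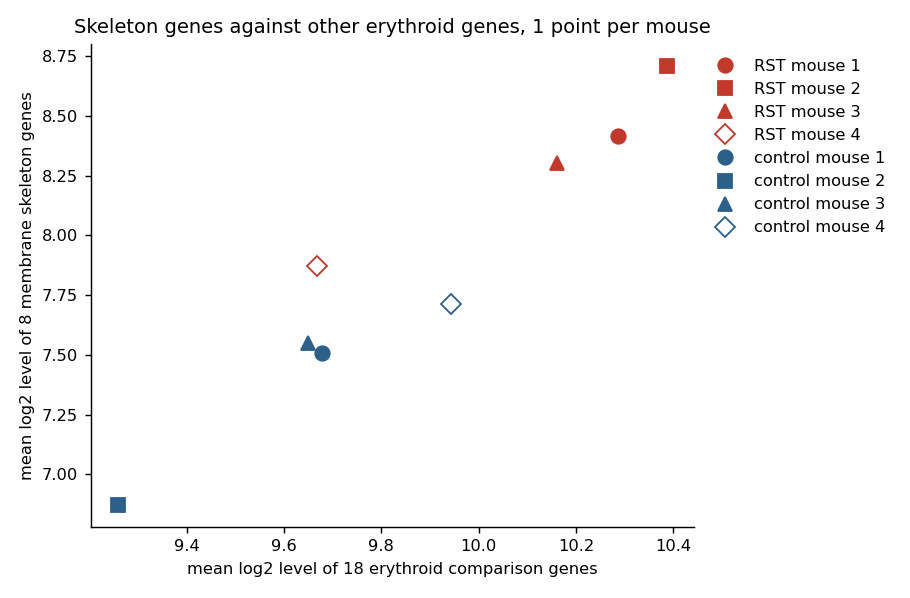
Mean log2 level of the 8 membrane skeleton genes against the mean log2 level of 18 other erythroid genes, 1 point per mouse (RST red, control blue). RST mouse 4 and control mice 1 and 3 have nearly the same level of the comparison genes, and the skeleton genes of RST mouse 4 are above those of these control mice.

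Cell type markers differed in mean between the groups as well, and the counts here are of means with no test. Over all tested probe sets 34.7% had the higher mean in RST mice, so a lower RST mean was the commoner direction on these arrays. The neutrophil markers, with a higher RST mean in 4 of 10, were near that share. The erythroid markers had a higher RST mean in 10 of 10 tested genes (median log2 fold change 0.52), and platelet markers in 9 of 11 (median 0.22, mean level 9.29 to 9.88 in RST and 9.32 to 9.65 in control mice). B cell markers had a lower RST mean in 9 of 9 (median −0.99, 7.06 to 7.47 in RST and 7.61 to 8.74 in control mice) and T cell markers in 9 of 9 (median −0.90, 5.98 to 7.06 in RST and 7.01 to 7.63 in control mice). Neutrophil markers had a lower RST mean in 6 of 10 (median −0.54, 6.36 to 8.37 in RST and 6.99 to 8.80 in control mice), monocyte markers in 7 of 8 (median −0.62, 6.91 to 8.04 in RST and 7.49 to 8.83 in control mice) and NK cell markers in 6 of 7 (median −0.65, 6.47 to 7.24 in RST and 6.99 to 7.72 in control mice). All 10 tested erythroid markers are also in the erythroid comparison list at the same probe sets, so their values are a part of that list's. The part of these shifts in the levels of the skeleton genes was not tested.

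**Figure D4:**
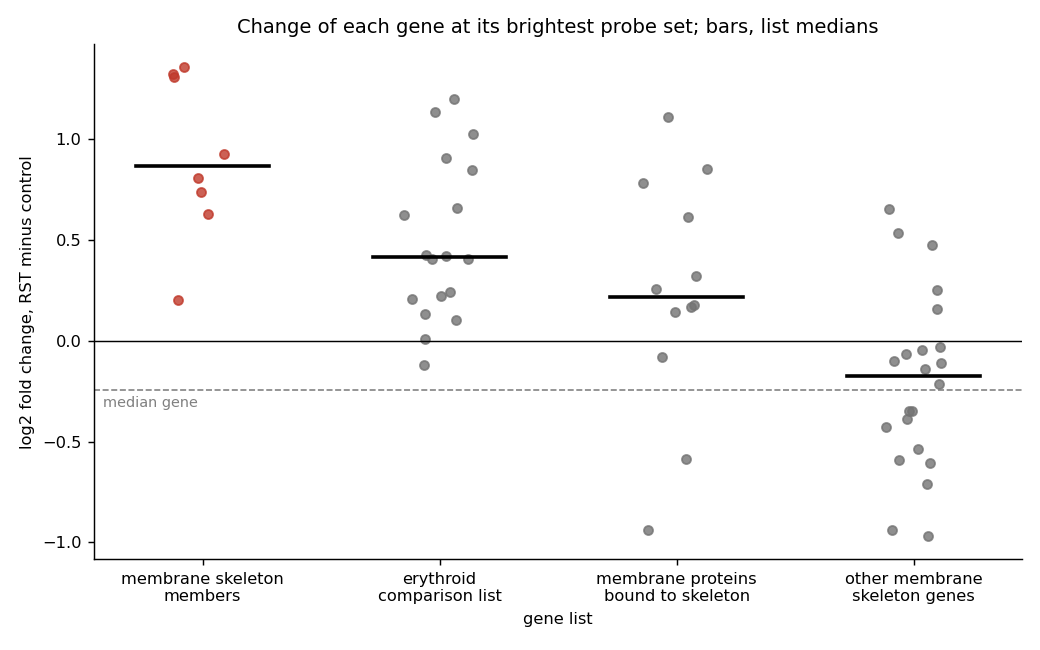
Log2 fold change (RST minus control) of each tested gene at its brightest probe set in 4 gene lists, 1 point per gene, with black bars at the list medians and a dashed line at the median gene (−0.24). The medians are 0.87 for the 8 membrane skeleton genes in red, 0.42 for the erythroid comparison list, 0.22 for membrane proteins bound to the skeleton and −0.18 for other membrane skeleton genes.

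The genes whose profile was most like the mean of the 8 skeleton genes, by Pearson correlation over the 8 mice among all other tested genes, were Fzr1 (0.993), Kel (0.988), Rundc3a (0.986), Fam126a (0.985) and Marchf8 (0.982). Their correlations were 0.94 to 0.98 after each group's mean was subtracted. Fzr1, an activator of the anaphase-promoting complex, averaged 7.41 in RST and 6.28 in control mice, 1.13 log2 units apart (standard error 0.30). For Rundc3a the difference was 1.34 (standard error 0.32), and limma gave both an adjusted p of 0.32.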

How the data were processed

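The values that the authors deposited are log2 levels, 1 for each probe set. The submitters' processing notes name RMA (robust multi-array averaging), Partek and Affymetrix Expression Console 1.2.0.20 without a role for each. The study's methods name GSRMA within Partek. Presence calls were not analysed here, and the array median stands in for them. A normalization that sets whole arrays level can shift all genes of an array together. A probe set was tested (25084) if it exceeded the array median in 2 or more of the 4 mice of either group, after 64 control probe sets were left out. Gene symbols came from the platform annotation, updated by Entrez identifier to GRCm38.p6 (34958 probe sets with a single gene, 932 with several, 9211 not listed). RST and control arrays were fitted across all tested probe sets in limma 3.58.1 (R 4.3.3, default prior) and p-values were adjusted by Benjamini-Hochberg. Single genes were also compared by exact permutation of mice. A planned permutation test of mean scores over the genes is given as values only, because the genes and gene lists were chosen with earlier results of these data known. Named are all 9 genes, the 4 genes of each list with the smallest p (including those past no threshold) and the 5 of most similar profile. Alternatives changed the filter, scaling, weights, prior, test, a hybridization covariate, a replicate block, the probe sets per gene and each mouse in turn. Promoter sequences are RefSeq, GRCm38.p6, with entries for 6 of the 9 genes. Figures were drawn with matplotlib 3.10.9.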

Additional observations from a re-analysis of the deposited data

Results flagged for a closer look

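In 2 of 52 groups of 4 values examined (each of the 23 probe sets and 3 mean scores, in RST and in control mice), 1 mouse stood apart from the other 3 by more than Dixon's limit, which chance passes in about 5% of groups. Both times it was RST mouse 4. Its log2 level of Sptb at the brightest probe set was 5.22, against 6.80 to 7.04 in the other RST mice. At a dim probe set of Add2 below the filter it was 3.69, against 2.55 to 2.72 in the other RST mice.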

How the results depend on the processing

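All 8 genes kept a higher RST mean under each of the 19 alternatives, except Add1, which was at −0.034 when arrays were scaled to the spike-in controls (a shift of −0.24 for all genes), and none reached an adjusted p under 0.05 (lowest 0.075, for Epb42 and Slc4a1, with the trended and robust prior). That prior called 35 probe sets in all, none of them of these genes. Probe sets over 1.5-fold higher in RST with an unadjusted p under 0.05 numbered 724. Quantile normalization gave 1415, array weights 1448, scaling to the spike-in controls 230, leaving out control mice 1 and 2 (chosen after the data were seen) 225, and single mice left out 428 (without control mouse 2) to 1290 (without RST mouse 4), with 476 without RST mouse 1. The hybridization covariate gave 654. Of the 8 genes, 6 met that rule in the chosen setting, 7 with quantile normalization, 4 with the hybridization covariate, 4 to 6 with single mice left out, and 3 with spike-in scaling or without control mice 1 and 2. The median over the 8 genes, 0.87, ran from 0.67 to 1.13 with single mice left out. Genes with RST above control in each mouse numbered 4, and 5 after quantile normalization, against 4.51% of the probe sets (this count under other settings was added after the data were seen). The 7 genes minus Add1 stood at 0.34 without control mice 1 and 2 and at 0.57 to 1.01 with single mice left out, and the 8 genes minus the erythroid list at 0.36 to 0.46. Equal replicate numbers mark different animals: the correlation of same-numbered mice ran from −0.24 to 0.42, no RST mouse followed its own number best, and with a replicate block 4 of the 8 genes met the rule and 728 probe sets in all.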
